A study of Mus musculus with 18 samples.

Results

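Fibroblasts that carry Pi16 were taken from single-cell RNA sequencing of mouse dorsal dermis. The cells were chosen by their own UMI counts (unique molecular identifiers, 1 per captured transcript). Barcodes entered if they had between 850 and 7800 genes detected and if mitochondrial transcripts gave less than 13% of their UMIs. It was called a fibroblast with at least 20 UMIs summed over the collagen genes Col1a1, Col1a2 and Col3a1, at least 1 UMI of Pdgfra, a growth factor receptor of fibroblasts, and 0 of Ptprc, the pan-leukocyte phosphatase CD45. A fibroblast was then a member with at least 2 UMIs of Pi16 and at least 2 UMIs in at least 2 of the 4 genes Sema3e, Pla1a, Crispld1 and Cd248, unless Krtdap, Dmkn and Sbsn each had 2 UMIs or more. This gave 7921 members among 12119 fibroblasts, 16877 barcodes past the filter and 23990 barcodes in all.

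The mice were wild-type C57BL/6J males, young adults with resting (telogen) hair follicles, kept under 12 h of light and 12 h of dark and given no treatment. The 18 animals made 6 groups of 3, collected at zeitgeber time (ZT, hours after lights on) 2, 6, 10, 14, 18 and 22. One 12 mm punch of dorsal skin per mouse was scraped free of fat, digested with collagenase, sorted for live cells and made into 1 library with the 10x 3′ v3 kit. No cell type was selected in the sort, and fat-associated layers were reduced by the scraping.

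Libraries held 4850221 to 40827442 UMIs, and 63 to 1079 members each. The UMIs summed over the members of a library ran from 1627425 to 23843058, with a median of 22182 UMIs per member. The libraries ZT6 replicate 2 and ZT10 replicate 3 shared 89 barcodes, 13.8% of the smaller one, where the median pair of libraries shared 0%. In ZT6 replicate 2 these barcodes held 501 to 1100 UMIs and none passed the filter. In ZT10 replicate 3 they held 19510 to 62030 UMIs, and 56 of them were members. None of these 89 barcodes was counted as a member in both libraries. Leaving out the first library gave 1147 rhythmic genes in the test described below for time of day, and leaving out the second gave 1127, against 1305 with both.

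Pi16 encodes a secreted peptidase inhibitor of the CAP family (cysteine-rich secretory proteins, antigen 5 and pathogenesis-related 1 proteins). Fibroblasts rich in Pi16, Dpp4 and Cd34 are known from the outer layers of many tissues and are often described as a reserve population in the interstitium around vessels and beneath the dermis. Sema3e encodes a secreted guidance cue that binds plexin D1, Pla1a a secreted phospholipase that makes lysophosphatidylserine, Crispld1 another CAP protein, and Cd248 the surface glycoprotein endosialin. Like other skin cells, fibroblasts hold a circadian clock, in which Clock, Npas2 and Arntl drive the Per, Cry and Nr1d genes, whose products then repress the drivers.

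The gate did not mark out a small subset. Members made up 65.4% of all fibroblasts and 46.9% of the barcodes past the filter, so the data go against a name that implies a rare cell, and the cells are called Pi16 fibroblasts here. Another 1969 fibroblasts (16.2%) passed the Pi16 gate but carried Krtdap, Dmkn and Sbsn, genes known from the outer epidermis, and 2229 (18.4%) lay outside the gate. These 4198 cells were the other fibroblasts. Of the 3018 leukocytes in the same libraries (Ptprc present, under 20 collagen UMIs), 0 passed the gate, which allows a share of up to 0.0994% from counting error alone.

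Most members lay far inside the Pi16 threshold. The median member had 123 Pi16 UMIs, the lowest 5% had 28 or fewer, and 9 members sat at the minimum of 2. Of the 4 partner genes, 2124 members had 2, 3776 had 3 and 2021 had all 4 at the required level. The looser end was set beside cells just outside, the 1359 fibroblasts that had enough Pi16 but 1 partner gene. The number of partner genes split these groups, so the values are a description. Members with 2 partner genes summed to 5731 CPM of Pi16 (counts scaled to a sum of 1e6 over the group of cells), against 3219. Dpp4 was at 797 against 482 CPM and Col15a1 at 21.3 against 156. Pla1a, which the gate uses as it does Pi16, was at 263 against 13.7 CPM. Each value is 1 sum over the cells of all libraries, with no spread over libraries. As the background for single UMIs, 35.5% of leukocytes held a Pi16 UMI at a median depth of 11345.5 UMIs, and 10.2% held 2 or more; free RNA, doublets and low expression were not tested as its source.

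The genes used by the rule are given as a description. Across the 18 libraries Pi16 in members ran from 3642 to 8399 CPM with a median of 5980, and in fibroblasts outside the gate from 724 to 2835 with a median of 2002. Sema3e ran from 124.8 to 204.1 CPM in members (median 155) and from 0 to 21.9 outside the gate (median 6.22). Pla1a ran from 267 to 486 CPM (median 366) against 1.86 to 20.7 (median 12.4). For all 3 genes every library's members lay above every library's cells outside the gate. Crispld1 had a median of 72.0 CPM in members and 4.44 outside, and Cd248 a median of 1168 against 500. The Krtdap cells were as high as members or higher in each of these genes, with medians of 8170 CPM for Pi16, 200.5 for Sema3e and 1436 for Cd248.

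**Figure D1:**
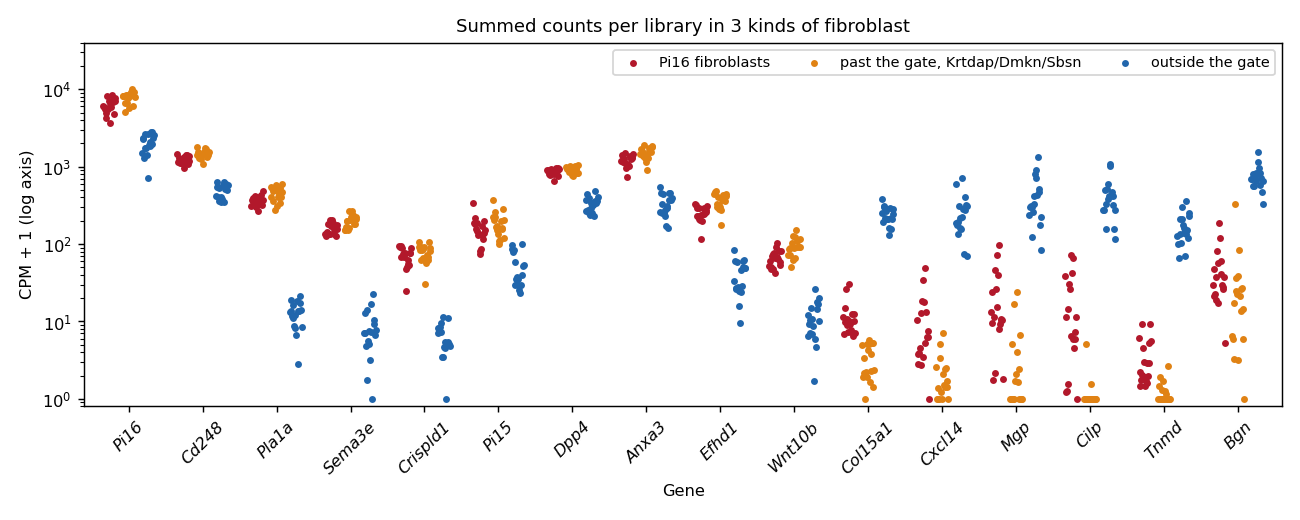
CPM plus 1 (log axis) of 16 genes in each of the 18 libraries, for Pi16 fibroblasts (red), fibroblasts past the gate with Krtdap, Dmkn and Sbsn (orange) and fibroblasts outside the gate (blue); each point is 1 library. Pi16 runs from 3642 to 8399 CPM in the red points and from 724 to 2835 in the blue, and Tnmd from 0.456 to 8.30 in the red and 65.7 to 362 in the blue.

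Members were then set beside the other fibroblasts of the same library over all genes with a mean of at least 1 CPM in either group. The rule chose the cells on these counts, so the differences are described as the median over libraries of log2 of (CPM + 1), with the SD over 18 libraries, and no test was made. Against all other fibroblasts, 5 of 12211 genes (0.0409%) were at least 2-fold higher in members with the same direction in every library, and 200 (1.64%) were at least 2-fold lower. The 5 were Cxcl13, Des, Col4a5, Dhrs9 and Rnase10. Cxcl13, a B-cell chemokine, was 2.91-fold higher (log2 1.54 ± 0.66), with a mean of 425 CPM in members and 154 in the other fibroblasts. Col4a5, a basement membrane collagen chain, was 2.39-fold higher at 92.4 against 38.6 CPM. The range over libraries was wide for Cxcl13, from 115 to 1181 CPM in members and from 21.4 to 740 in the others, so the 2 groups overlapped although each library had the same order.

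The Krtdap cells in the comparison group resemble members, so the same description was made against the 2229 fibroblasts outside the gate, a comparison chosen after the data were seen. There 369 of 12353 genes (2.99%) were at least 2-fold higher in members in every library and 427 (3.46%) were lower. Of a list of 21 genes for interstitial Pi16 fibroblasts, 13 were higher, 0 were lower, and the list's median was 1.34 on the log2 scale, against 0.204 over all genes. The other fibroblasts as a whole gave 0 of 21 in either direction and a median of 0.244, against 0.0802 over all genes. The gate selects on genes that go with this list in the same cells, so these counts carry no support for it.

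Several genes of that list had no overlap between members and fibroblasts outside the gate. Lack of overlap was not particular to the list: Akr1c18 and Chst1, which are not on it, had none either. The share of all genes without overlap is not given here. Dpp4, the peptidase CD26, was 2.49-fold higher than outside the gate (log2 1.32 ± 0.28), at 855 ± 80.9 CPM (SD, n = 18 libraries) against 330 ± 71.7. Anxa3, a calcium-dependent phospholipid-binding protein, was 3.72-fold higher, and its lowest library in members, 726 CPM, lay above the highest outside the gate, 539. Mfap5, a component of elastin-associated microfibrils, was 3.25-fold higher, at 2096 ± 257 against 650 ± 157 CPM. Efhd1, a mitochondrial calcium-binding protein, was 6.89-fold higher and Smpd3, a neutral sphingomyelinase, was 4.25-fold higher. Each of these 5 genes had no overlap between the 2 groups of 18 values. The Krtdap cells held them at similar or higher levels, and were above members in 18 of 18 libraries for Mfap5 (1.52-fold), Efhd1 (1.44-fold) and Anxa3 (1.25-fold) and in 16 of 18 for Dpp4, while Smpd3 was higher in members in 14. Cd34, Ly6a and Dpt, often used as general markers of such cells, were close to even, with medians of 1433, 3063 and 2805 CPM in members and 1117, 2467 and 2386 outside the gate.

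Signalling genes lay on both sides. Of 48 measured growth factors and modulators, 13 were higher in members and 8 lower, beside 2.99% and 3.46% of all genes. The rule chose the cells, so these counts are a description. Among Wnt ligands, Wnt10b was 6.26-fold higher (65.1 ± 16.5 against 10.4 ± 6.16 CPM), Wnt2 was 3.02-fold and Wnt5a 3.12-fold higher, and Rspo3, which raises Wnt receptor levels, was 4.75-fold higher. Bmp7 was 2.53-fold higher, although its groups overlapped. On the other side, the chemokine Cxcl12 was 11.6-fold lower in members, at 40.6 ± 17.7 against 433 ± 102 CPM, the growth factor Igf1 was 2.48-fold lower and the monocyte chemokine Ccl2 3.99-fold lower. In the semaphorin list Sema3e and Sema3c were higher, the former through the gate itself, and Nrp1, Plxna4, Plxnd1 and Sema3f were lower. Plxnd1, the receptor of Sema3e, was at 1.02 ± 0.44 CPM in members and 6.67 ± 3.52 outside the gate. The Krtdap cells were above members in 18 of 18 libraries for Wnt2 (1.41-fold), Rspo3 (1.45-fold) and Sema3c (1.47-fold). They were above members in 17 for Wnt10b and Bmp7, while Wnt5a was higher in members in 13.

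The genes lowest in members against fibroblasts outside the gate were Tnmd, Agt, the precursor of angiotensin, Cxcl14, Mfap4 and Sparcl1. Of 9 measured genes for fascia and tendon, 7 were lower. The list's median was -4.59 on the log2 scale, against 0.204 over all genes. For this list and those that follow, the shares over all genes were 3.46% lower and 2.99% higher. These counts are a description as well, since the rule chose the cells. Tnmd, the tendon membrane protein tenomodulin, was 52.3-fold lower than outside the gate, with 0.456 to 8.30 CPM in members (median 1.55) and 65.7 to 362 (median 145) outside. Cilp, a cartilage matrix protein, was 34.1-fold lower. Of 20 genes for adipocyte precursors and the widely shared Col15a1 fibroblast, 10 were lower and 0 higher; Col15a1 itself, a basement membrane collagen, was 21.8-fold lower at 10.7 ± 6.53 against 240 ± 62.7 CPM. Cxcl14, a chemokine of papillary and precursor fibroblasts, was 41.9-fold lower. Among 34 matrix genes, Loxl1 and Fbln5 of the elastic fibre were higher, and 9 were lower, Bgn by 18.6-fold, Lox by 4.17-fold, Lum by 3.71-fold and Col1a1 by 2.26-fold. Folds of genes near 1 CPM, such as Tnmd, depend on the pseudocount of 1.

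Handling genes moved with this comparison. Of 20 early response genes known to be induced by tissue dissociation, 9 were lower in members than outside the gate and 0 higher. Over all genes these shares were 3.46% and 2.99%. Fos was 2.53-fold, Jun 2.10-fold and Atf3 4.48-fold lower. The summed level of the list was 8423 to 19460 CPM over libraries in members and 21700 to 40750 outside the gate, and its part in the result was not tested. Keratinocyte genes summed to 209.6 to 775.5 CPM in members and 22.4 to 180 outside the gate, mostly from Sbsn (a mean of 314 CPM in members), Krtdap (63.8) and Krt10 (31.0), while the defining keratins Krt14 and Krt5 had medians of 0 CPM and Krt1 was at 0 in members. Endothelial genes summed to at most 6.76 CPM in members, immune genes to at most 39.8 with Ptprc at 0 by the rule, and adipocyte genes to at most 11.7. Other lists were higher. Red blood cell genes summed to 60.3 to 1859 CPM in members and 10.1 to 4879 outside the gate. Muscle genes summed to 2.56 to 276 CPM against 1.88 to 92.8, and mural genes to 57.9 to 114.5 against 90.9 to 164. The source of these transcripts was not tested.

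Members also differed among themselves within each library. With each cell thinned to 10000 UMIs, variance over mean was taken for 5505 genes, with a median of 1.10 over genes. Apart from haemoglobin, ribosomal and nuclear transcripts, the largest values were those of Col3a1 (36.3), the chemokine Cxcl1 (35.9), Col1a1 (35.2), Ccl2 (31.9) and the metallothionein Mt1 (30.9), followed by early response genes such as Zfp36 (28.8) and Fos (26.02). Pi16 itself was among the most variable at 17.0, in place 24, and Cxcl13 was at 16.3. Dpp4 had a ratio of 1.71 at a median mean of 8.59 UMIs per thinned cell, against 62.3 for Pi16. The ratio grows with a gene's mean, so it gives no order of evenness between genes of different level, and the gate bears on the values of the rule genes.

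The design asks how expression depends on the time of day. Counts were summed over the members of each library, and a 24 h cosine was fitted to each of 11596 genes with edgeR; the amplitude is the fitted distance from the mean to the peak on the log2 scale. Adjusted p fell under 0.05 for 1305 genes, which is 11.3% of those tested, and 3078 had an unadjusted p under 0.05. The called genes had a median amplitude of 0.280, with quartiles of 0.204 and 0.427, and 43 exceeded 1. Of the 1305, 695 (53.3%) were also called in each of the 18 fits that left out 1 library. Without ZT14 replicate 3 the count was 924.

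The core clock dominated. Of 18 core clock genes tested, 16 were rhythmic, beside 11.3% of all genes, and the list had a median amplitude of 1.73 against 0.127 over all genes. Bhlhe40 (adjusted p = 0.124) and Rora (adjusted p = 0.258) were the exceptions. Arntl, the clock activator BMAL1, stood at 29.3, 25.8 and 29.5 CPM (scaled by edgeR's TMM factors, as are all values by time below) in the 3 libraries of ZT22 and at 0.634, 0.978 and 0.468 in those of ZT10. Its amplitude was 2.60 ± 0.20 (SE, n = 18 libraries), a 37.0-fold span from trough to peak, with the peak at ZT22.4 and an adjusted p of 3.63e-07. All libraries of ZT22 and ZT2 lay above all those of the other times. Npas2 and Clock, which pair with Arntl, peaked at ZT23.6 and ZT22.5. Clock moved least of the 3, from 41.0 ± 1.26 CPM (SD, n = 3) at ZT10 to 80.9 ± 3.68 at ZT22, yet it was among the most certain calls because its replicates were tight.

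The targets of that activator ran in the opposite phase. Nr1d1, the repressor REV-ERB alpha, had the largest amplitude among core clock genes, 3.34 ± 0.30, and peaked at ZT8.16. Its libraries at ZT6 held 131, 118 and 173 CPM and those at ZT18 held 2.38, 1.60 and 3.54, with no overlap. Dbp, a transcription factor that binds D-box elements, peaked at ZT10.2 with 245, 265 and 233 CPM at ZT10 and 6.47, 6.17 and 7.08 at ZT22, a span of 54.5-fold. Its relatives Tef and Hlf peaked at ZT11.1 and ZT11.6. Ciart, a repressor of Clock and Arntl, was scarce but regular, at 8.88, 8.80 and 9.19 CPM at ZT10 and at most 0.602 CPM in every library of ZT18, ZT22 and ZT2.

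Repressors followed in sequence. Per1 peaked first, at ZT8.15, then Per3 at ZT11.1 and Per2 at ZT14.6, with Cry1 latest at ZT19.3. Per3 rose to 112, 120 and 119 CPM at ZT10 from 17.7, 21.3 and 15.8 at ZT2. Per2 had more spread, with 16.2, 34.6 and 34.1 CPM at ZT14 and 1.41, 1.22 and 1.47 at ZT2. Nfil3, which competes with Dbp for D-boxes, ran against it with a peak at ZT22.3 and a 15.2-fold span. Peak times of neighbours such as Clock (ZT22.5 ± 0.37), Arntl (ZT22.4 ± 0.24) and Nfil3 (ZT22.3 ± 0.36) differed by less than their standard errors.

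**Figure D2:**
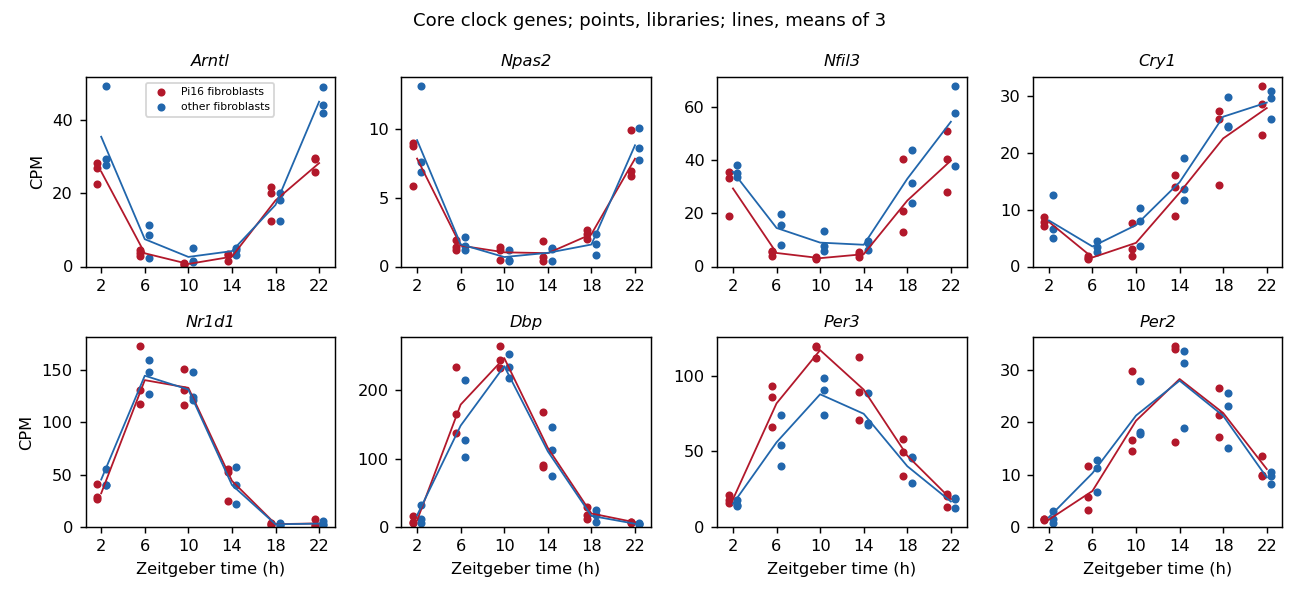
TMM-scaled CPM of 8 core clock genes by zeitgeber time in hours, in Pi16 fibroblasts (red) and other fibroblasts (blue); points are libraries and lines join the means of 3. Arntl, Npas2 and Nfil3 are high at ZT22 and ZT2, Nr1d1 and Dbp at ZT6 and ZT10, and Per2 at ZT14, in both kinds of cell.

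Promoters of core clock genes hold known binding letters for this loop. Short stretches before the start site are shown for a selection of the genes whose phases are described above. Per1, Tef and Nfil3 also had matches before the start site, which are not shown. RefSeq promoters (GRCm38.p6, 250 bases before to 50 after each start) were found for 16 of the 19 genes on the list. The E-box CACGTG, bound by Clock and Arntl, was present in 5 of the 16 (31.3%) and in 8.09% of 27025 genes. The D-box TTATGTAA was in 1 of 16 (6.25%), which was Per3, and in 1.11% of all genes, and AGGTCA, the core letters bound by the ROR and REV-ERB receptors, in 5 of 16 (31.3%) and 18.1%. Both strands were searched, and the E-box and AGGTCA can share letters. A match describes letters, not binding. Capitals mark the motif.
Ciart, chr3:95882327-95882356, minus strand, E-box: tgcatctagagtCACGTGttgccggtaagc
Ciart, chr3:95882269-95882298, minus strand, E-box: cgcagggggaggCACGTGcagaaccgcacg
Ciart, chr3:95882255-95882284, minus strand, E-box: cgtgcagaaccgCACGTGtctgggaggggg
Cry1, chr10:85185097-85185126, minus strand, E-box: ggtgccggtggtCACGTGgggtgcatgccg
Per3, chr4:151044852-151044881, minus strand, D-box: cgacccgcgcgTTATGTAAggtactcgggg
Per3, chr4:151044805-151044834, minus strand, D-box: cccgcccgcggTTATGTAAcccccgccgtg
Clock, chr5:76303604-76303633, minus strand, AGGTCA on the other strand: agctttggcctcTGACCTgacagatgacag
Ciart, with 3 E-boxes in this window, peaked at ZT10.3. Cry1, with 1, peaked at ZT19.3, and Per3, with 2 D-boxes and no E-box here, peaked at ZT11.1.

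Genes outside the core clock were among the 20 smallest p as well. Dgat2, the enzyme of the last step of triglyceride synthesis, had the smallest p of all genes (adjusted p = 3.46e-08), with 7.29, 7.17 and 8.42 CPM at ZT10 and 0.622, 0.231 and 0.483 at ZT22. Por, the reductase that serves cytochrome P450 enzymes, went from 53.9 ± 6.52 CPM (SD, n = 3) at ZT22 to 119 ± 9.86 at ZT10. Tspan4, a tetraspanin, went from 55.7 ± 9.46 at ZT2 to 192 ± 33.2 at ZT14, and Leo1, a subunit of the PAF1 transcription complex, peaked at ZT22.6. Ptgis, prostacyclin synthase, peaked at ZT12.0 with a 2.12-fold span, and Irak3, a brake on interleukin 1 receptor signalling, at ZT8.87. Sash1, Rin3, Arhgap18, St5, Klhl13 and Unc119b peaked within 2 h of lights on, between ZT22.8 and ZT0.403, and the antisense transcript Gm19522 at ZT17.1. Whether any reads counted for Gm19522 came from a gene on the other strand was not tested. Of 26 clock output and metabolism genes, 10 were rhythmic (11.3% over all genes). The 10 include the core clock gene Per1, and Dgat2, Por, Tspan4 and Leo1 named above. The list was chosen with earlier results of these data known, so its count is a description.

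Of 33 matrix genes tested, 6 were rhythmic (11.3% over all genes), and 4 of these peaked between ZT3 and ZT9, in the light. Fbn1, the microfibril protein fibrillin 1, was the surest, with 2846, 2302 and 2475 CPM at ZT2 and 1281, 891 and 846 at ZT14, an amplitude of 0.67 ± 0.07 and a peak at ZT3.33 (adjusted p = 3.89e-06). Loxl2, a collagen crosslinking enzyme, peaked at ZT3.59 with a 1.67-fold span, Lox at ZT5.28 and Thbs2 at ZT8.66. Col12a1, a fibril-associated collagen, went the other way, with 75.1, 99.5 and 71.9 CPM at ZT18 and 23.2, 22.5 and 37.5 at ZT2, and Fbln2 peaked at ZT14.4. The fibrillar collagen Col1a1 gave an adjusted p of 0.733.

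CAP family and semaphorin genes held further daily changes. Of 5 CAP genes tested 3 were rhythmic, and of 10 semaphorin and receptor genes 3, beside 11.3% of all genes. The called genes include the gate genes Crispld1 and Sema3e, and the numbers are too small to set against that share. Of the CAP genes that the gate did not use, Pi15 and Crispld2 were rhythmic, the latter with a peak at ZT8.73. Pi15 held 342, 184 and 180 CPM at ZT2 and 72.6, 78.2 and 85.9 at ZT14, peaking at ZT2.47 (adjusted p = 0.0155). Crispld1 is part of the gate and its members' values are a description, with 83.6 ± 14.9 CPM (SD, n = 3) at ZT2 and 39.4 ± 13.8 at ZT14. In all fibroblasts together, with no gate, its adjusted p was 0.00762 and its peak ZT2.66. Sema3c peaked at ZT3.16, from 903 ± 123 CPM at ZT2 to 567 ± 108 at ZT14, and Sema3a at ZT1.58. Sema3e, another gate gene, was highest at ZT14 with 187 ± 11.3 CPM against 134 ± 6.09 at ZT2, and without the gate its adjusted p was 0.0174 with a peak at ZT14.5. In the same fit with no gate, Pi16, Cd248 and Pla1a gave adjusted p of 0.295, 0.249 and 0.762.

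Among receptors and ligands, the values of called genes were as follows. Il18r1, a chain of the interleukin 18 receptor, had an amplitude of 1.89 ± 0.35 and a peak at ZT1.99, with 81.1, 64.3 and 51.8 CPM at ZT2 and 1.23, 6.75 and 3.80 at ZT14. It had the widest daily span of the 19 complement and immune ligand genes tested, of which 2 were rhythmic, a share near the 11.3% over all genes. Lpl, lipoprotein lipase, fell from 493 ± 57.8 CPM at ZT2 to 174 ± 54.5 at ZT14. Of 41 growth factors and modulators, 7 were rhythmic (beside the same 11.3%), and 4 of them peaked between ZT9 and ZT15. Fgf2 peaked at ZT12.3 with 122, 154 and 174 CPM at ZT14 against 80.0, 86.9 and 99.5 at ZT22, the eotaxin Ccl11 at ZT10.2 and Vegfd at ZT12.6, while Vegfa peaked at ZT21.2 and Bmp4 at ZT7.21. Of the 21 genes for interstitial Pi16 fibroblasts, 4 were rhythmic (Sema3c, Smpd3, Efhd1 and Uchl1; 11.3% over all genes), and Dpp4 had an adjusted p of 0.285.

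**Figure D3:**
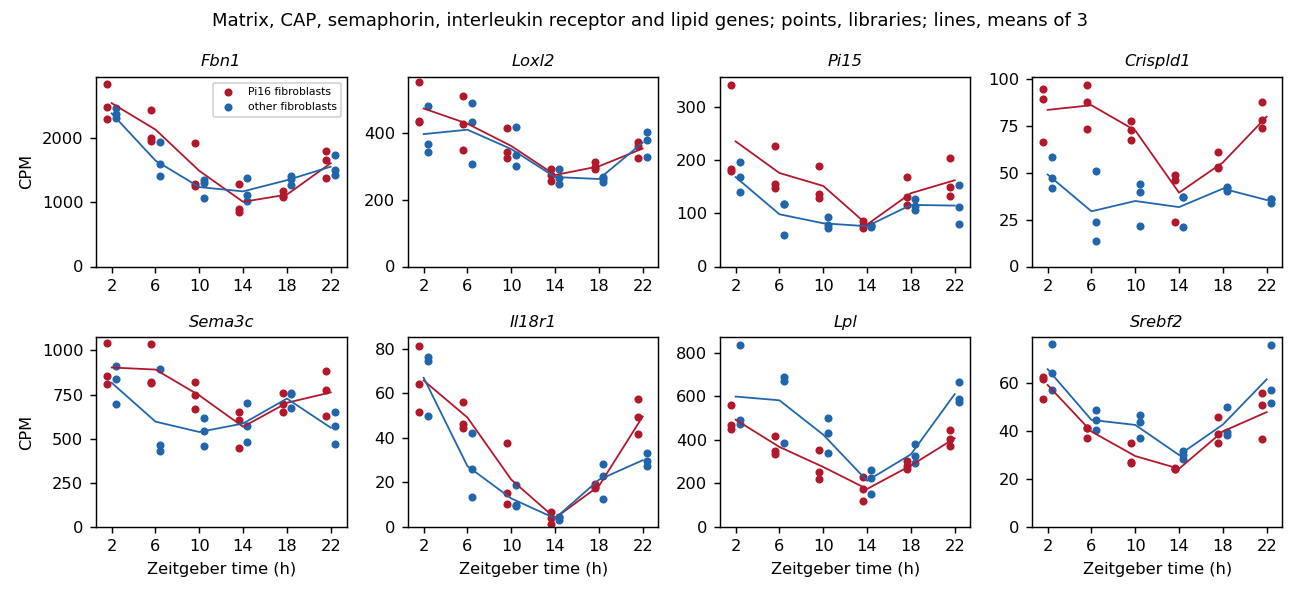
TMM-scaled CPM of 8 genes by zeitgeber time in hours, in Pi16 fibroblasts (red) and other fibroblasts (blue); points are libraries and lines join the means of 3. In Pi16 fibroblasts the lowest mean of each gene is at ZT14, and Fbn1 goes from 2541 CPM at ZT2 to 1006 at ZT14.

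Peaks of the called genes gathered around dawn and dusk. In 6 h windows, 368 (28.2%) peaked from ZT21 to ZT3, 293 (22.5%) from ZT3 to ZT9, 412 (31.6%) from ZT9 to ZT15 and 232 (17.8%) from ZT15 to ZT21. Over all 11596 genes tested the same windows held 25.3%, 24.8%, 24.97% and 24.9%. Of early response genes 1 of 19 (Klf4) was rhythmic, of interferon genes 1 of 15 (Ifit2) and of cell cycle genes 1 of 12 (Mcm2), each near the 11.3% over all genes. Among markers of other cells, 1 of 3 mural genes (Pdgfrb) was called, and 0 of 5 red blood cell, 7 muscle, 5 keratinocyte, 1 endothelial, 3 immune, 2 Schwann and 1 adipocyte genes, numbers too small to set against that share.

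**Figure D4:**
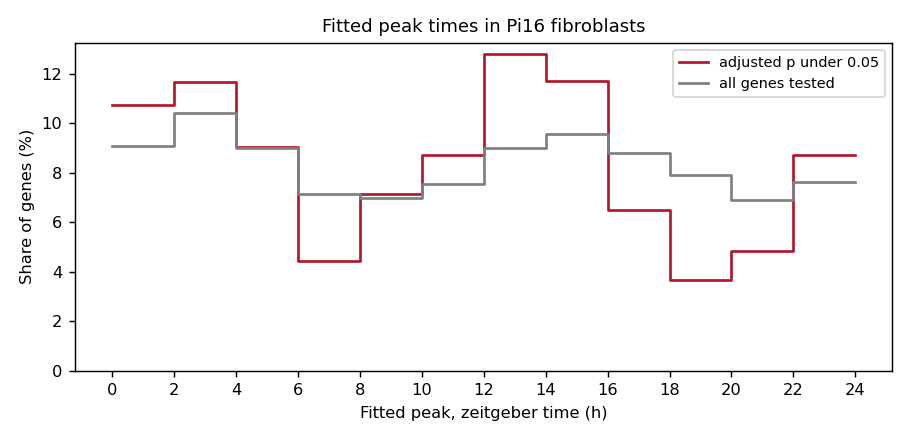
Share of genes in percent by fitted peak in 2 h bins of zeitgeber time, for the 1305 genes with an adjusted p under 0.05 (red) and all 11596 genes tested (grey) in Pi16 fibroblasts. The red line reaches 12.8% from ZT12 to ZT14 and holds 152 genes from ZT2 to ZT4, and is lowest from ZT18 to ZT20 at 3.68%.

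Whether members keep time differently from the other fibroblasts of the same mouse was tested with an interaction, each library being a block. Of 11275 genes, 0 had an adjusted p under 0.05 (0%) by edgeR, 734 had an unadjusted p under 0.05 and the smallest adjusted p was 0.714. DESeq2 called 3 genes. In simulated counts, 195 genes were made rhythmic in members only. The edgeR test recovered 33 of them at an amplitude of 0.5 and 92 at an amplitude of 1. The genes called rhythmic in members had a median amplitude of 0.280. The other fibroblasts also include 1969 cells that passed the Pi16 gate. The lack of calls therefore does not show that the rhythms are equal. The other fibroblasts on their own gave 492 rhythmic genes of 11406 (4.31%), from fewer UMIs. That smaller number does not show that they differ.

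The genes nearest to a difference are given by value. The 10 smallest p belonged to Scd2, Kbtbd11, Mat2a, Cdc42ep3, Pdgfrb, Peg3, Cgnl1, Ralgds, Fig4 and Vtn, none of them called. Pdgfrb, a platelet-derived growth factor receptor, had an amplitude of 0.60 ± 0.08 in members and 0.31 ± 0.08 in the others, a difference of 0.28 ± 0.11 (adjusted p = 0.755). Vtn, the adhesion protein vitronectin, had 0.06 ± 0.12 against 1.05 ± 0.24, at 7.76 and 23.3 CPM. Among clock genes, Nr1d1 had amplitudes of 3.31 ± 0.29 in members and 3.28 ± 0.22 in the others, a difference of 0.03 ± 0.15, with peaks at ZT8.16 and ZT7.82. Per3 had amplitudes of 1.47 ± 0.12 and 1.36 ± 0.10, a difference of 0.11 ± 0.04. Nfil3 differed by 0.51 ± 0.18, with 1.95 in members and 1.45 in the others (unadjusted p = 0.0151 in edgeR's fit, not called after adjustment).

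The share of members among fibroblasts also varied with time. It was 67.8% ± 5.41 (SD, n = 3 libraries) at ZT2, 65.4% ± 9.90 at ZT6, 62.7% ± 6.60 at ZT10, 54.5% ± 14.9 at ZT14, 59.1% ± 0.838 at ZT18 and 72.5% ± 3.59 at ZT22. Over single libraries it ran from 37.8% (ZT14 replicate 1) to 75.9%, with a median of 63.6%. A 24 h cosine had an amplitude of 7.21 ± 3.29 percentage points and a peak at ZT1.47, and a two-sided permutation test over libraries gave p = 0.0394. The call rested on single libraries: it was lost in 13 of the 18 fits that left out 1, and without ZT14 replicate 1 the amplitude was 4.75 points and the permutation p was 0.136. It was also lost after every cell was thinned to 10000 UMIs (4.70 points, permutation p = 0.122).

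The cells set aside for Krtdap, Dmkn and Sbsn moved in the opposite direction. Members, these cells and fibroblasts outside the gate are shares of the same total. A fall in the members' share must therefore raise another share, and the movements are not independent. These cells were 29.8% ± 12.9 of fibroblasts at ZT14 and 24.9% ± 0.882 at ZT18, against 8.57% ± 2.504 at ZT22. At ZT2 they were 14.5% ± 4.20, at ZT10 13.2% ± 5.66, and at ZT6 9.85% ± 11.5. With them left out of the denominator the members' share had an amplitude of 3.96 points (permutation p = 0.144), and with them counted as members the share past the gate peaked at ZT18.9 with 4.18 points (p = 0.0831). Within replicate sets, which were collected on different days, the amplitude was 13.02 points in the first, 6.29 in the second and 3.54 in the third. Fibroblasts outside the gate stayed between 11.8% and 31.8% of each library.

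**Figure D5:**
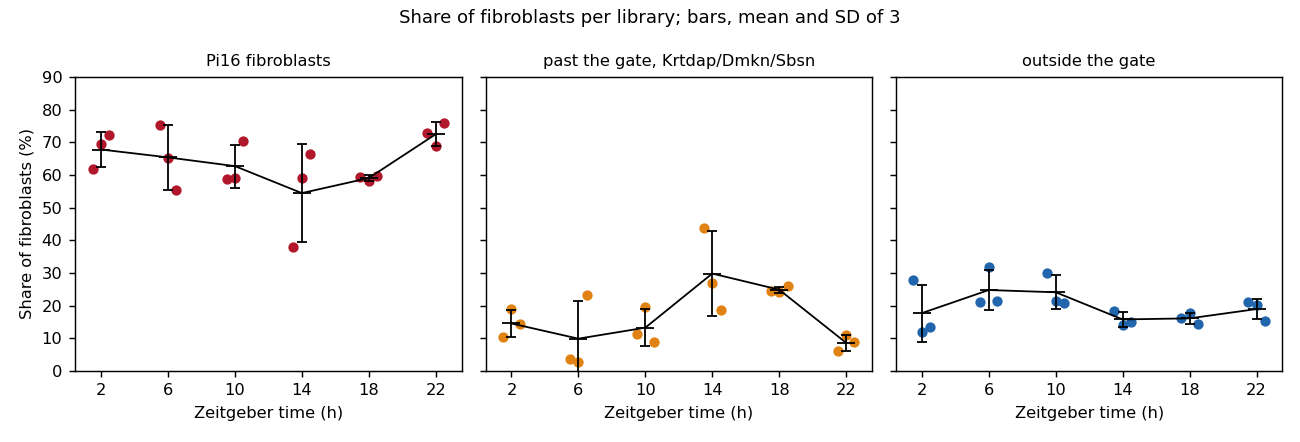
Share of fibroblasts in percent by zeitgeber time in hours, for Pi16 fibroblasts, fibroblasts past the gate with Krtdap, Dmkn and Sbsn, and fibroblasts outside the gate; points are libraries, bars the mean and SD of 3. The lowest Pi16 point, 37.8% at ZT14, is the library with the highest orange point, 43.9%. The points of a library are shares of the same total.

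Depth was compared with the share as a check. Across the 18 libraries the members' share had Pearson's r of -0.411 with the median UMIs per fibroblast (permutation p = 0.0920) and Spearman's rho of -0.168 (p = 0.502). Without the 2 libraries farthest from the median depth, ZT14 replicate 1 and ZT2 replicate 1, r was 0.148 (permutation p = 0.584), so the relation rests on those libraries. After thinning r was -0.515 (permutation p = 0.02999, and 0.05998 adjusted over both relations) and rho -0.401 (p = 0.1004).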

How the data were processed

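The authors aligned and counted reads with Cell Ranger 3.1.0 on mm10 (per the submitters' processing notes) and deposited raw UMI counts per gene and barcode for 18 libraries, 1 mouse each. Barcodes were filtered and members chosen from these counts as stated in the report; no doublet caller was run, and an alternative left out the 5% of members with the most UMIs. Counts were summed per library over members and over other fibroblasts. Genes were filtered with filterByExpr, scaled by TMM and tested with edgeR 4.0.16 (quasi-likelihood, cosine and sine of 24 h, Benjamini-Hochberg, adjusted p under 0.05) in R 4.3.3; the difference in rhythm had the library as a block. Shares were tested with 100000 permutations of zeitgeber times in Python 3.11.15. Steps run across genes were tested on simulated data. Intervals and limits cover counting error only. DESeq2 1.42.0, a rank test, other scalings, filters, member rules and references, and leaving out each library were alternatives.

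Named genes were the rule genes, listed genes as examples, the 20 highest and 20 lowest of those with at least 50 CPM and 1 direction in every library (of which a selection is printed; some genes are not reported here), the 20 smallest adjusted p for rhythm with the core clock, and the 10 smallest p for the difference. Members and lists were chosen with earlier results of these data known. Replicate numbers mark the collection day by the labels' hours; deviations of same-numbered libraries correlated by 0.0428 on average (-0.140 to 0.341), with 11 of 45 pairs over 0.1.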

Additional observations from a re-analysis of the deposited data

How the results depend on the processing

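With the replicate block, 1324 genes were rhythmic in Pi16 fibroblasts against 1305 without it, and the share of members kept its call (permutation p = 0.0488); it changed no other call among the named genes. A rank test of the kind used by JTK gave 641 adjusted and 2660 unadjusted calls, and leaving out 1 library gave 924 to 1642. In other fibroblasts 492 genes became 324 when only those outside the gate were taken. For the difference in rhythm, DESeq2 called 3 genes, the rule after thinning 2 and the reference outside the gate 1, and leaving out 1 library gave 0 throughout. Genes 2-fold higher in members numbered 5, and 718 against fibroblasts with no Pi16 UMI, 369 against those outside the gate and 2 with a pseudocount of 10 CPM; leaving out 1 library gave 5 throughout. Genes 2-fold lower numbered 200, and 427 against those outside the gate and 82 with a pseudocount of 10 CPM, with 196 to 245 when 1 library was left out. The amplitude of the members' share was 7.21 points in the main fit (permutation p = 0.0394). It was 4.70 after thinning, 5.44 with a stricter rule and 3.96 without the Krtdap cells in the denominator, these 3 short of the threshold. With 1 library left out the amplitude of the share was 4.75 to 8.53. Counting the Krtdap cells in turned its peak to ZT18.9 (4.18 points), and the Krtdap cells' own share of cells past the gate peaked at ZT15.1 (10.4 points). The relation of share and depth had r of 0.148 without the 2 farthest libraries and -0.515 after thinning. Of 898 values for 31 named genes, 880 kept their call, 12 lost it (Per1 under the rank test, adjusted p = 0.0710, and Cry2 in 11) and 6 gained it (Rora in 2, Bhlhe40 in 4), and none turned direction. The causes were not tested. The minimum of 20 members changed nothing, since every library held at least 63. Depth limits rare genes most, since the thinnest library summed 1627425 UMIs over members.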

Other observations

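A list of 23 genes of sterol metabolism was chosen after their values in Pi16 fibroblasts were seen, so its counts are a description. Of the 23, 17 were rhythmic by edgeR, beside 11.3% of all genes, with peaks between ZT21.8 and ZT2.61 and a median amplitude of 0.521 over the list. Srebf2, the transcription factor that drives the pathway, held 62.7, 53.4 and 61.99 CPM (TMM-scaled) at ZT2 and 24.2, 24.6 and 24.1 at ZT14. These groups did not overlap.

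Of the 23 genes 16 had a RefSeq promoter (GRCm38.p6), and 1 of them (6.25%), Hmgcs1, held the sterol element letters TCACNCCAC on either strand, beside 1.44% of all genes. The match is shown in capitals because this element is the known binding site of the factor made by Srebf2; it describes letters only.
Hmgcs1, chr13:119690204-119690233, plus strand: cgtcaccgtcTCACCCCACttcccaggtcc
Hmgcs1 peaked at ZT23.2 with an adjusted p of 0.0256 in edgeR's test, and was called in 14 of the 18 fits that left out 1 library.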
